A study of Mus musculus with 12 samples.

Results

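Rab proteins are small GTPases that mark the membranes of the cell's transport routes. In the GTP-bound form a Rab recruits effectors that move, tether and fuse vesicles, exchange factors load it with GTP, GTPase-activating proteins switch it off, and a lipid tail holds it in the membrane. In macrophages Rab proteins direct the maturation of phagosomes, the recycling of receptors and the delivery of cytokines to the cell surface. The transcripts of this family were followed through 4 states of mouse bone marrow-derived macrophages on single-colour Agilent arrays.

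A gene was taken as a member when its name on the array was Rab followed by a number and at most a letter and a digit. This gave 57 genes, measured by 82 probes in 91 spots, and 36 of the 57 had 1 probe. Of these, 48 were tested because their brightest probe was well above background, by the scanner software's call, on all 3 arrays of at least 1 group. They stand among 20496 genes tested in all. Detection on all 12 arrays was seen for 44 of the 48, and Rab17, Rab39, Rab3b and Rab44 passed on part of the arrays. The array names Rab1, Rab6 and Rab7l1 are Rab1a, Rab6a and Rab29 in current nomenclature.

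Each group had 3 arrays, called replicates 1 to 3 and described as independent experiments. Cells of all groups came from the marrow of female C57BL/6 mice aged 6 to 8 weeks and had 7 days of differentiation in L929-conditioned medium, and 200 ng of total RNA was labelled with Cy3. Recovered cells received lipopolysaccharide (LPS) for 8 h, were rested for 88 h and received LPS again for 4 h, although the treatment protocol gives the rest as 2 to 4 days. Tolerant cells received LPS for 8 h, were rested for 16 h and received LPS again for 4 h. Acute cells received LPS for 4 h only, and untreated cells received none. LPS is the bacterial outer-membrane lipid sensed by Toll-like receptor 4. The design holds no untreated cells matched to the longer culture times and no cells that were rested without the last LPS dose, and whether marrow was pooled or each experiment used other animals is not stated.

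All 11 macrophage markers measured were well above background on all 12 arrays, and their summed log2 signal was 19.73 to 20.01 in recovered, 19.53 to 19.88 in tolerant, 19.46 to 19.72 in acute and 19.45 to 19.49 in untreated cells. Of 8 fibroblast and stroma markers 1 was above background on every array and 3 (Col1a1, Pdgfra and Lum) on none, with a summed signal of 8.69 to 9.38 in recovered, 8.79 to 9.04 in tolerant, 8.48 to 8.90 in acute and 6.92 to 7.19 in untreated cells. Pdgfrb, the brightest of them in each LPS group, had means of 8.42, 8.24, 7.05 and 2.14 in the same order and was above background on 9 arrays. Col1a2, the one detected on every array, had 6.4, 5.92, 6.24 and 5.75. Of 6 erythroid and platelet markers 2 were above background on every array and 2 (Klf1 and Itga2b) on none, with 15.11 to 15.65 in recovered, 13.52 to 14.63 in tolerant, 13.06 to 14.02 in acute and 12.66 to 13.72 in untreated cells. Pf4, the brightest of them, had means of 15.36, 14.12, 13.36 and 12.97 in the same order. Hba-a1, the other one detected on every array, had 5.7, 5.27, 5.49 and 5.37. The markers of this list detected on part of the arrays went the other way, with lower means in recovered than in untreated cells. Neutrophil, lymphocyte, dendritic cell and mast cell lists held 4 of 8, 3 of 8, 2 of 6 and 5 of 6 markers that were above background on no array, and 3, 2, 2 and 1 that were on all. Among those detected on all arrays, means in recovered, tolerant, acute and untreated cells were 9.78, 10.89, 9.07 and 8.28 for S100a8, 7.48, 8.07, 6.68 and 5.82 for Camp, 10.56, 9.37, 10.53 and 5.22 for Zbtb46 and 6.66, 9.07, 9.43 and 10.52 for Cd79b. Other markers of the same lists, also detected on all arrays, moved less. Their means in the same order were 12.53, 12.01, 12.31 and 12.35 for Elane, 16.55, 16.46, 16.55 and 16.46 for Siglech and 10.72, 10.35, 10.63 and 10.49 for Cd3e. The part of these cells in the Rab values was not tested, and fewer cells of a type and less RNA per cell cannot be told apart in such samples. The replicate 3 arrays of all groups share a slide scanned on a second day, so slide and replicate number largely coincide.

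The upstream windows of 6 members that carry the main patterns are shown here, because genes whose transcripts moved together can be compared base by base. Each is the 250 bases before the RefSeq transcription start on GRCm38.p6, written 5′ to 3′ on the gene's strand. Capitals mark matches on either strand to any of 5 motifs that were searched in all windows: the interferon-stimulated response element as GAAANNGAAA, the AP-1 site as TGANTCA, the E-box CACGTG, the PU.1 core GAGGAA, and the kappa B site, named here without its letters. CACGTG is its own reverse complement, and no match of one motif overlaps that of another in the windows printed. Rab19 lies at chr6:39381103-39381352 (+), Rab9 at chrX:166479868-166480117 (-), Rab3a at chr8:70754453-70754702 (+, the first of its annotated starts), Rab40c at chr17:25919715-25919964 (-), Rab32 at chr10:10558208-10558457 (-) and Rab20 at chr8:11478641-11478890 (-).
Rab19: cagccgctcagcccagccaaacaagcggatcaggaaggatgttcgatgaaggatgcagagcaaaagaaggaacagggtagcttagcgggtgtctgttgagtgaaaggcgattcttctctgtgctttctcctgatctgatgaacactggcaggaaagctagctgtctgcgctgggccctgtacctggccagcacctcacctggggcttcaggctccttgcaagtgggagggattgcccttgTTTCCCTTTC
Rab9: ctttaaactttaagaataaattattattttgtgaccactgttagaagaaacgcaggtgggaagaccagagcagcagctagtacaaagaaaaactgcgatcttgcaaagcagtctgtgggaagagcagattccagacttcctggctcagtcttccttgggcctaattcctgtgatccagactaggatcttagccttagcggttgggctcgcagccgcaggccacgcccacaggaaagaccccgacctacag
Rab3a: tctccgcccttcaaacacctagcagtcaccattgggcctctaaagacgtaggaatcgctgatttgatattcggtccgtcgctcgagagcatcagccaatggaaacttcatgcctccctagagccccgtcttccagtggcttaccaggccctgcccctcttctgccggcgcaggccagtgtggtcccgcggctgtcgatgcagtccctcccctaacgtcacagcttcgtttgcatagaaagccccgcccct
Rab40c: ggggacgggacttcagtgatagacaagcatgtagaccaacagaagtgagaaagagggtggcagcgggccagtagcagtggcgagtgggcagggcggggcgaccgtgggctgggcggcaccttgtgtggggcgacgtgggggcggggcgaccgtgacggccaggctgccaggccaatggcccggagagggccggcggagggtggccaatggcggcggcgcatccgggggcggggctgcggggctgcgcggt
Rab32: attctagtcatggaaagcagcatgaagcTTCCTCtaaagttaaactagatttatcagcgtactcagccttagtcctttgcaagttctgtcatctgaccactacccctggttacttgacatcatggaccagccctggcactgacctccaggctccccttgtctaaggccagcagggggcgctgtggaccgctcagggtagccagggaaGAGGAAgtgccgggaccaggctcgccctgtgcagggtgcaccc
Rab20: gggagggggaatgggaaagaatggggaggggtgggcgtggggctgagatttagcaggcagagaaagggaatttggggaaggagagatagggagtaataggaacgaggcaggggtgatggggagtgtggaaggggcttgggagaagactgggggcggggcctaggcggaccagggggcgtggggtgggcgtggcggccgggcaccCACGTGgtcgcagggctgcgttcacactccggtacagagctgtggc

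Windows were at hand for 42 of the 48 members, 53 in all because some genes have several annotated starts, and shares are of windows. The interferon-stimulated response element, the sequence bound by interferon-activated transcription factors, was found in 1 of the 53 windows, that of Rab19 (1.89%), where its reverse complement fills the last 10 bases before the start, and in 2.98% of 32851 windows of all genes. The kappa B site, bound by NF-kappa B, was found in 2 of 53 (3.77%, Rab15 and Rab28) against 3.9% of all windows, and the AP-1 site in 2 of 53 (3.77%, Rab15 and Rab34) against 6.75%. CACGTG, the E-box read by MiT/TFE factors among others, was found in 4 of 53 (7.55%, Rab20, Rab21, Rab23 and Rab5a) against 6.02%, and the PU.1 core in 8 of 53 (15.1%) against 23.3%. Rab9, Rab3a and Rab40c held no match in the windows printed. These matches describe letters, and no binding was measured.

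Across the family, recovered cells differed from untreated cells in 23 of 48 members (14 higher, 9 lower), which is 47.9% of members against 35.3% of all genes called (18.5% higher and 16.9% lower). Tolerant cells differed from untreated cells in 13 members (8 higher, 5 lower), 27.1% against 19.8% of all genes (11.2% higher and 8.6% lower), and acute cells in 19 members (12 higher, 7 lower), 39.6% against 29.2% of all genes (14.3% higher and 14.9% lower). A call is an adjusted p under 0.05 in limma with Benjamini-Hochberg adjustment over all genes tested. The median log2 fold change over the 48 members was 0.29, 0.11 and 0.16 in recovered, tolerant and acute against untreated cells, beside 0.06, -0.02 and 0.02 over all genes. Over the 4 groups together the moderated F-test called 23 of 48 members, beside 40.1% of all genes, and 21 members were called in no pairwise comparison. With other scalings the split of higher and lower members moved. In recovered cells it was 12 and 13 (quantile) or 13 and 12 (the authors' values). In tolerant cells it was 7 and 7 (percentile over probes above background on all arrays) or 8 and 9 (the authors' values). In acute cells it was 9 and 9 (quantile), 9 and 11 (that percentile) or 12 and 11 (the authors' values). The share of all genes called was 40.7% and 54.3% in recovered cells (quantile and the authors' values). It was 23.5% and 34.5% in tolerant cells (that percentile and the authors' values), and 33%, 32.1% and 45.4% in acute cells (quantile, that percentile and the authors' values).

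**Figure D1:**
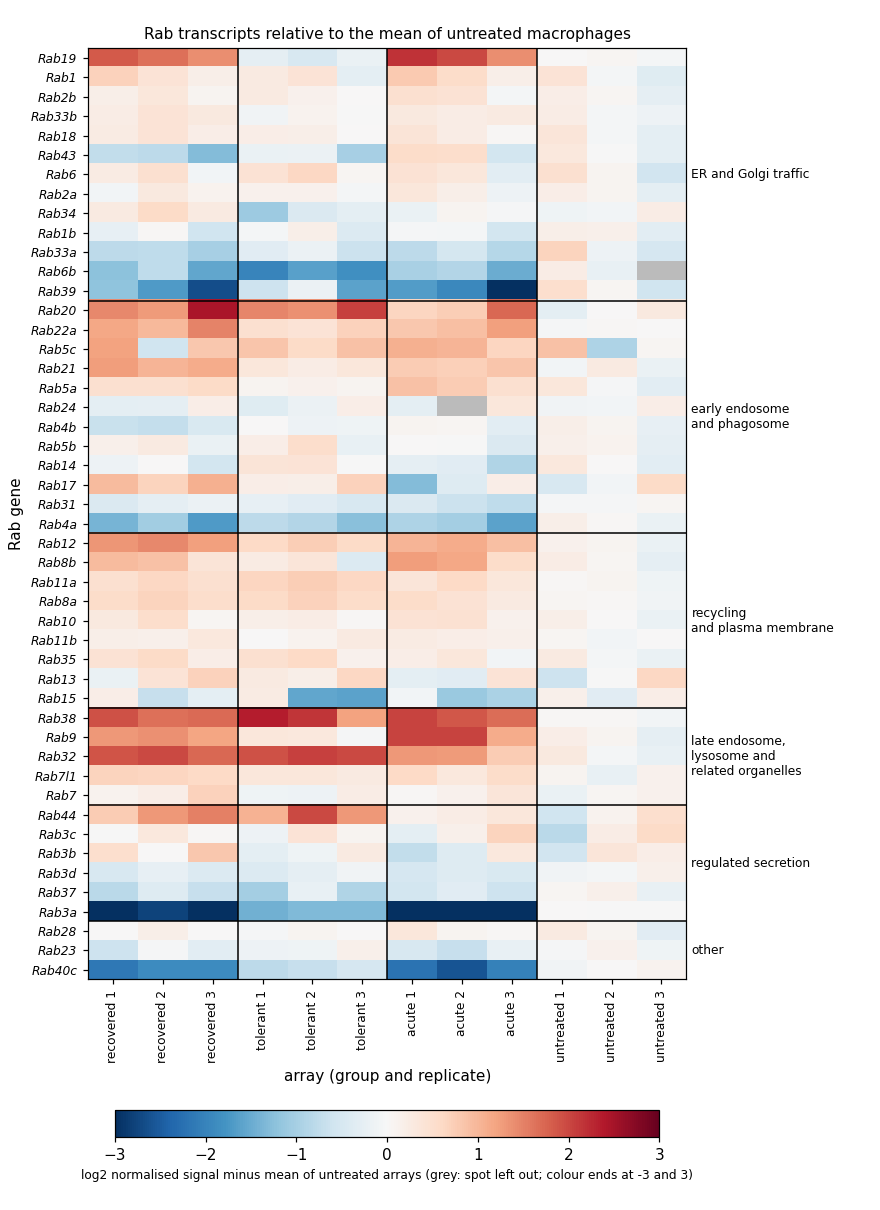
Signal of the 48 Rab genes (rows, grouped by the route they serve) on the 12 arrays (columns), as the log2 difference from the mean of the untreated arrays. Rab19, Rab9 and Rab3a differ from untreated most in the acute and recovered columns, while Rab32 and Rab38 are red in all 3 LPS groups; grey marks 1 spot each of Rab6b and Rab24 that was left out as an outlier.

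Late endosomes, lysosomes and the organelles related to them are served by 5 tested members. In this group 4 of the 5 were called higher in recovered cells (Rab9, Rab32, Rab38 and Rab7l1), 2 of 5 in tolerant cells (Rab32 and Rab38) and 4 of 5 in acute cells, and none was called lower against untreated cells. For this and the role groups below, the shares of all genes in recovered, tolerant and acute cells were 18.5%, 11.2% and 14.3% called higher. Those called lower were 16.9%, 8.6% and 14.9%.

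Rab32 and Rab38 are close relatives that deliver cargo to melanosomes and other lysosome-related organelles, and both take part in the defence of mouse macrophages against Salmonella. The log2 normalised signal of Rab32 was 14.49, 14.59 and 14.33 in recovered, 14.51, 14.66 and 14.59 in tolerant, 13.91, 13.88 and 13.37 in acute and 12.91, 12.54 and 12.39 in untreated cells. All 9 arrays of LPS-treated cells lay above the 3 untreated arrays, and the tolerant and recovered arrays lay above the acute ones. Rab32 was 3.63-fold higher in recovered cells (log2 1.86 ± 0.18 SE, adjusted p = 1.59e-05), 3.93-fold higher in tolerant cells (1.97 ± 0.18, adjusted p = 2.44e-05) and 2.16-fold higher in acute cells (1.11 ± 0.18, adjusted p = 0.000792) than in untreated cells. It was also higher in tolerant than in acute cells, by 0.86 ± 0.18 on the log2 scale (adjusted p = 0.00663; 0.6, 0.78 and 1.21 within slides 1, 2 and 3). Between recovered and acute cells the difference of 0.75 ± 0.18 had an adjusted p of 0.066, and 0.0119 with the replicate number as a block.

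Rab38 had 8.77, 8.53 and 8.56 in recovered, 9.23, 9.02 and 8.08 in tolerant, 8.89, 8.73 and 8.55 in acute and 6.91, 6.91 and 6.79 in untreated cells (log2 signal). The LPS groups overlapped one another and stood clear of the untreated arrays. The rise was 3.36-fold in recovered (1.75 ± 0.25, adjusted p = 0.000246), 3.75-fold in tolerant (1.91 ± 0.25, adjusted p = 0.000312) and 3.62-fold in acute cells (1.86 ± 0.25, adjusted p = 0.000188). A second Rab38 probe was well above background on 1 of 12 arrays, so the gene's values rest on the brighter probe, at chr7:95639879-95639938 of mm9.

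Rab9, which returns mannose 6-phosphate receptors from late endosomes to the Golgi, had 14.07, 14.15 and 13.96 in recovered, 13.11, 13.10 and 12.75 in tolerant, 14.81, 14.80 and 13.89 in acute and 12.97, 12.86 and 12.50 in untreated cells. Tolerant and untreated arrays overlapped, and the recovered and acute arrays were all higher. The rise against untreated cells was 2.43-fold in recovered (1.28 ± 0.24, adjusted p = 0.00167) and 3.31-fold in acute cells (1.72 ± 0.24, adjusted p = 0.000248), while tolerant cells differed by 0.21 ± 0.24 (adjusted p = 0.629). Tolerant cells were lower than acute cells by 1.52 ± 0.24 (adjusted p = 0.00135) and recovered cells were higher than tolerant cells by 1.07 ± 0.24 (adjusted p = 0.0108). Both other Rab9 probes, above background on all 12 arrays, had group means in the same order, 13.22, 12.17, 13.67 and 11.87 for one and 13.18, 12.16, 13.57 and 11.86 for the other in recovered, tolerant, acute and untreated cells.

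Rab7, the Rab of late endosome and lysosome fusion, was called in none of the 6 comparisons, with differences from untreated cells of 0.33 in recovered, -0.02 in tolerant and 0.17 in acute cells. Rab7 was called higher with the replicate block in recovered cells than in untreated (adjusted p = 0.0251) and tolerant cells (adjusted p = 0.0253). Rab7l1, a Rab that recruits the kinase LRRK2 to lysosomes and the Golgi, was higher in recovered cells by 0.65 ± 0.14 (adjusted p = 0.00372) and in acute cells by 0.49 ± 0.14 (adjusted p = 0.02). Its acute call was lost in 8 of 25 other settings (adjusted p up to 0.126), including the removal of untreated array 2, acute array 1 or acute array 3. The block added calls for Rab7l1 in tolerant against untreated (0.32, adjusted p = 0.0459) and recovered against tolerant cells (0.32, adjusted p = 0.039).

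**Figure D2:**
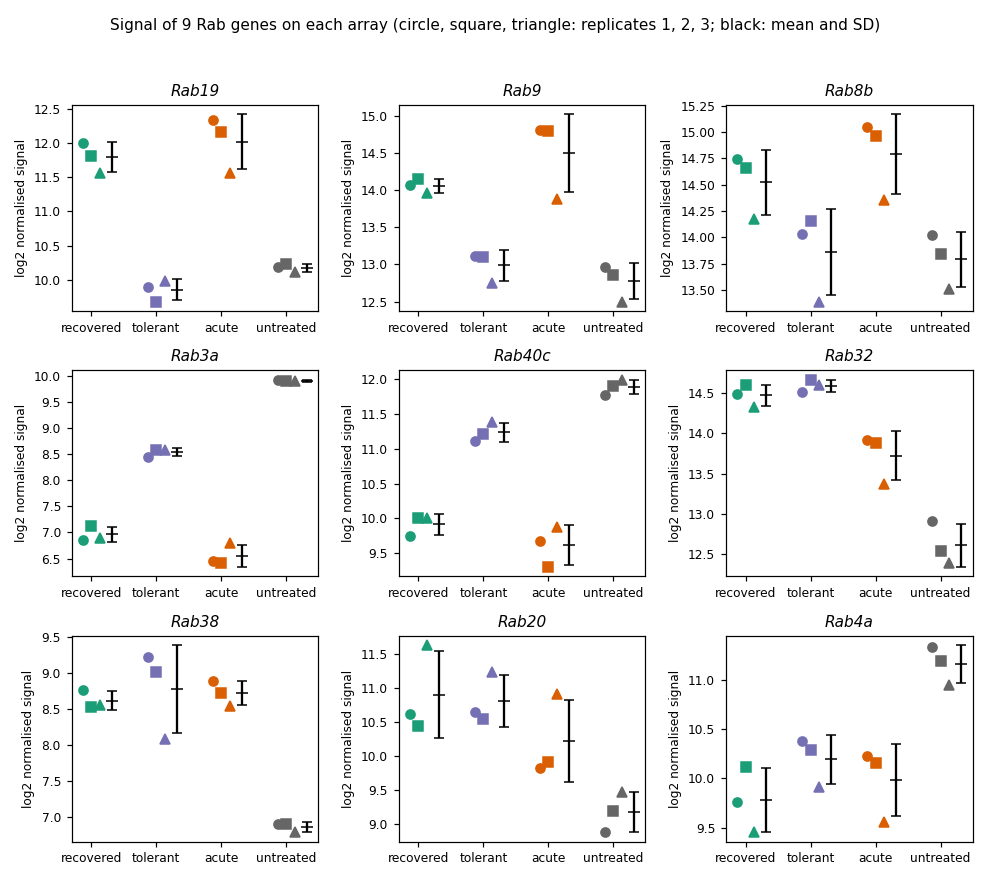
Log2 normalised signal of 9 Rab genes on each array, by group (recovered, tolerant, acute, untreated), with the group mean and SD in black. Rab19 and Rab9 are high in recovered and acute cells and near the untreated level in tolerant cells, Rab3a and Rab40c show the opposite pattern with tolerant cells in between, and Rab32, Rab38 and Rab4a differ from untreated cells in all 3 LPS groups.

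Early endosomes and phagosomes are served by 12 tested members. Against untreated cells 4 were called higher and 2 lower in recovered cells, 2 higher and 1 lower in tolerant cells, and 3 higher and 2 lower in acute cells. Rab20, which acts in the maturation of macrophage phagosomes, had 10.62, 10.45 and 11.63 in recovered, 10.65, 10.54 and 11.24 in tolerant, 9.83, 9.91 and 10.91 in acute and 8.88, 9.20 and 9.47 in untreated cells. Every array of the 3 LPS groups exceeded the untreated ones, and replicate 3 was the highest in each group. Rab20 was 3.28-fold higher in recovered (1.71 ± 0.36, adjusted p = 0.00339) and 3.09-fold higher in tolerant cells (1.63 ± 0.36, adjusted p = 0.00829). In acute cells the difference was 1.03 ± 0.36, with an adjusted p of 0.0534, and of 0.000666 with the replicate block. With that block Rab20 was also called higher in tolerant (0.59, adjusted p = 0.016) and recovered (0.68, adjusted p = 0.0301) than in acute cells. Within slides the tolerant difference from untreated cells was 1.77, 1.34 and 1.77, and the recovered one was 1.34 on slide 2 and 2.15 on slide 3.

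Rab5a, Rab5b and Rab5c are the isoforms that drive early endosome fusion through effectors such as Eea1. Rab5a had 12.97, 12.96 and 13.06 in recovered, 12.56, 12.60 and 12.57 in tolerant, 13.36, 13.23 and 12.97 in acute and 12.81, 12.45 and 12.17 in untreated cells. The acute and recovered arrays lay above the untreated ones, and the tolerant arrays lay within the untreated range. Rab5a was higher by 0.71 ± 0.17 in acute cells (adjusted p = 0.00887) and by 0.52 ± 0.17 in recovered cells (adjusted p = 0.0372), and was lower by 0.61 ± 0.17 in tolerant than in acute cells (adjusted p = 0.0265). The recovered call was lost without any one of untreated 2 or 3, acute 2, tolerant 1 or 2 or any recovered array (adjusted p 0.0522 to 0.122) and under 6 other settings, and the tolerant call against acute without acute 1 or 2 or any tolerant array (0.0638 to 0.0894). The acute call was lost when only these 2 groups were fitted (adjusted p = 0.0586). The block added a higher level in recovered than in tolerant cells (0.42, adjusted p = 0.039).

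Rab5b and Rab5c were called in no comparison. Rab5c had 15.21, 13.42 and 14.81 in recovered, 14.84, 14.58 and 14.89 in tolerant, 15.07, 15.04 and 14.65 in acute and 14.89, 13.08 and 14.07 in untreated cells. The recovered and untreated groups each held 1 array, replicate 2, far below the other arrays. For Rab5b the differences from untreated cells were 0.07, 0.17 and -0.15 in recovered, tolerant and acute cells, and with the replicate block it was higher in tolerant than in acute cells (0.32, adjusted p = 0.0333).

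Rab21, which acts in integrin uptake, had 9.37, 9.13 and 9.22 in recovered, 8.46, 8.33 and 8.45 in tolerant, 8.86, 8.83 and 8.95 in acute and 8.03, 8.39 and 7.90 in untreated cells. Its order was recovered, acute, tolerant and untreated, with overlap only between the last 2 groups. The gene was 2.2-fold higher in recovered (1.14 ± 0.15, adjusted p = 0.000135) and 1.71-fold higher in acute cells (0.77 ± 0.15, adjusted p = 0.00236) than in untreated cells, and 1.78-fold higher in recovered than in tolerant cells (0.83 ± 0.15, adjusted p = 0.00353). Lower levels in tolerant than in acute cells (-0.47 ± 0.15, adjusted p = 0.0459) were called only narrowly, and this call was lost on removal of any array except untreated 2 and 3 (adjusted p 0.0509 to 0.136). Rab22a, an early endosome and recycling Rab, followed the same order, with 11.69, 11.52 and 12.03 in recovered, 11.03, 10.96 and 11.24 in tolerant, 11.36, 11.44 and 11.78 in acute and 10.51, 10.57 and 10.55 in untreated cells. Its differences from untreated cells were 1.21 ± 0.17 in recovered (adjusted p = 0.000203), 0.54 ± 0.17 in tolerant (adjusted p = 0.0463) and 0.99 ± 0.17 in acute cells (adjusted p = 0.00101). The tolerant call was lost in 14 of 25 other settings, 9 of them the removal of 1 array, which was any array except acute 3, recovered 2 or recovered 3. Rab22a was called lower in tolerant than in acute cells with the replicate block (-0.45, adjusted p = 0.012).

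Rab4a and Rab4b serve rapid recycling from early endosomes. Rab4a had 9.76, 10.11 and 9.46 in recovered, 10.38, 10.29 and 9.91 in tolerant, 10.23, 10.15 and 9.56 in acute and 11.33, 11.19 and 10.95 in untreated cells. All 9 arrays of LPS-treated cells were below the lowest untreated one. Rab4a fell 2.6-fold in recovered (-1.38 ± 0.23, adjusted p = 0.000702), 1.95-fold in tolerant (-0.96 ± 0.23, adjusted p = 0.0121) and 2.26-fold in acute cells (-1.18 ± 0.23, adjusted p = 0.00239), and a second probe had group means of 7.13, 7.63, 7.41 and 8.53 in recovered, tolerant, acute and untreated cells. In recovered against tolerant cells it was called lower with the replicate block (-0.42, adjusted p = 0.0238). Rab4b had 11.20, 11.14 and 11.41 in recovered, 11.86, 11.7 and 11.73 in tolerant, 11.95, 11.91 and 11.55 in acute and 12.03, 11.95 and 11.61 in untreated cells. Only the recovered arrays of Rab4b stood below those of the other groups. Rab4b fell in recovered against untreated cells (-0.61 ± 0.16, adjusted p = 0.0127), and against tolerant cells (-0.51 ± 0.16, adjusted p = 0.0464), a call that was lost on removal of 1 of 9 arrays (all but untreated 1 and 3 and acute 3, adjusted p 0.0528 to 0.142). Against acute cells it was called with the replicate block (-0.55, adjusted p = 0.0386).

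Rab31, which links the trans-Golgi network to endosomes, fell in acute cells by 0.61 ± 0.14 (adjusted p = 0.00597), with 11.49, 11.29 and 11.17 in acute and 11.89, 11.90 and 11.99 in untreated cells. The acute and untreated arrays did not overlap. Rab14, of the Golgi and early endosomes, had 14.62, 14.66 and 14.23 in tolerant and 13.97, 13.91 and 13.34 in acute cells, and was higher in tolerant cells by 0.76 ± 0.23 (adjusted p = 0.0385). That call was lost on removal of untreated 2, acute 2 or 3, tolerant 1 or 2 or recovered 1 (adjusted p 0.0537 to 0.121). With the replicate block Rab14 was called lower in acute than in untreated cells (-0.5, adjusted p = 0.0043) and in recovered than in tolerant cells (-0.5, adjusted p = 0.0062). Rab24, with acute array 2 left out of the fit, was not called in any comparison. Rab17, best known from epithelial cells, was above background on all recovered arrays but on 1 array of each other group, so it entered the test only through the recovered group, where it was highest. Without the block no pairwise comparison called it, and the moderated F-test over the 4 groups did (adjusted p = 0.0435). With the block its calls in recovered against untreated (adjusted p = 0.01) and acute cells (adjusted p = 0.00822) and in tolerant against acute cells (adjusted p = 0.0161) rest on few values above background. No size is given for them.

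Recycling endosomes and the plasma membrane are served by 9 tested members. Of these, 4 were called higher in recovered (Rab8a, Rab8b, Rab11a and Rab12), 3 in tolerant (Rab8a, Rab11a and Rab12) and 4 in acute cells (the same 4 as in recovered cells), and none was called lower against untreated cells. Rab12, which steers the transferrin receptor to lysosomes, had 13.15, 13.26 and 13.06 in recovered, 12.43, 12.56 and 12.40 in tolerant, 12.85, 12.94 and 12.74 in acute and 11.95, 11.91 and 11.63 in untreated cells. No 2 of these groups overlapped. The rise was 2.5-fold in recovered (1.32 ± 0.14, adjusted p = 2.17e-05), 1.55-fold in tolerant (0.63 ± 0.14, adjusted p = 0.007) and 2.02-fold in acute cells (1.01 ± 0.14, adjusted p = 0.000178). Recovered cells exceeded tolerant cells by 0.69 ± 0.14 (adjusted p = 0.00523), and tolerant cells were lower than acute cells by 0.38 ± 0.14 (adjusted p = 0.0663, or 0.00901 with the replicate block).

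Rab8a and Rab8b, which carry cargo from the Golgi and recycling endosomes to the cell surface, differed in their values. Rab8b had 14.74, 14.66 and 14.17 in recovered, 14.03, 14.15 and 13.39 in tolerant, 15.05, 14.96 and 14.35 in acute and 14.02, 13.84 and 13.51 in untreated cells. Tolerant and untreated arrays overlapped, and replicate 3 was the lowest array of every group. The gene was higher by 1.00 ± 0.26 in acute (adjusted p = 0.0131) and by 0.73 ± 0.26 in recovered cells (adjusted p = 0.0481), and was lower by 0.93 ± 0.26 in tolerant than in acute cells (adjusted p = 0.0258). The acute call was lost without acute 1 or 2 (adjusted p up to 0.0522), the tolerant one without acute 1 or 2 or tolerant 3 (up to 0.0906), and the recovered one without any array other than acute 3, tolerant 3 or recovered 3 (up to 0.151). All these differences had the same sign within each slide that held both groups. Slide 1 held no recovered array, so the recovered difference was seen on slides 2 and 3 only (0.86 and 0.66). With the replicate block recovered cells were called higher than tolerant cells (0.67, adjusted p = 0.00115).

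Rab8a had 11.60, 11.73 and 11.59 in recovered, 11.63, 11.74 and 11.61 in tolerant, 11.60, 11.49 and 11.32 in acute and 11.12, 11.09 and 10.96 in untreated cells. It was higher by 0.58 ± 0.13 in recovered (adjusted p = 0.00408), 0.6 ± 0.13 in tolerant (adjusted p = 0.00603) and 0.41 ± 0.13 in acute cells (adjusted p = 0.03). Rab11a, the main Rab of recycling endosomes, had 12.44, 12.58 and 12.43 in recovered, 12.60, 12.69 and 12.58 in tolerant, 12.33, 12.55 and 12.30 in acute and 11.99, 12.05 and 11.84 in untreated cells, a rise of 0.53 ± 0.13 (adjusted p = 0.00834), 0.66 ± 0.13 (adjusted p = 0.00396) and 0.44 ± 0.13 (adjusted p = 0.0252) in recovered, tolerant and acute cells. For both genes every LPS array exceeded the untreated ones. The acute calls were lost without untreated 2 or 3 or acute 1 or 2 for Rab8a (adjusted p 0.0607 to 0.104), and without untreated 3 or acute 2 for Rab11a (0.0808 to 0.109). Quantile scaling also ended them, with values of 0.28 (adjusted p = 0.0552) and 0.24 (adjusted p = 0.145).

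Rab10, which moves Toll-like receptor 4 to the surface of macrophages, was not called by its brightest probe, with differences from untreated cells of 0.29, 0.15 and 0.35 in recovered, tolerant and acute cells. Its second probe, also above background on all 12 arrays, was called higher in recovered (0.58 ± 0.17, adjusted p = 0.0189), tolerant (0.76 ± 0.17, adjusted p = 0.00814) and acute cells (0.65 ± 0.17, adjusted p = 0.0121). The brightest probe was called with the replicate block in recovered (adjusted p = 0.0382) and acute cells (adjusted p = 0.0217). The others of this group, Rab11b, Rab13, Rab15 and Rab35, were called in no comparison by their brightest probes. A second Rab13 probe, above background on all 12 arrays, was called lower in acute cells (-0.57 ± 0.18, adjusted p = 0.0308). With the block Rab35 was higher in recovered (0.41, adjusted p = 0.0149) and tolerant cells (0.41, adjusted p = 0.0198) and Rab15 was lower in tolerant cells (-0.97, adjusted p = 0.0243) than in untreated cells.

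**Figure D3:**
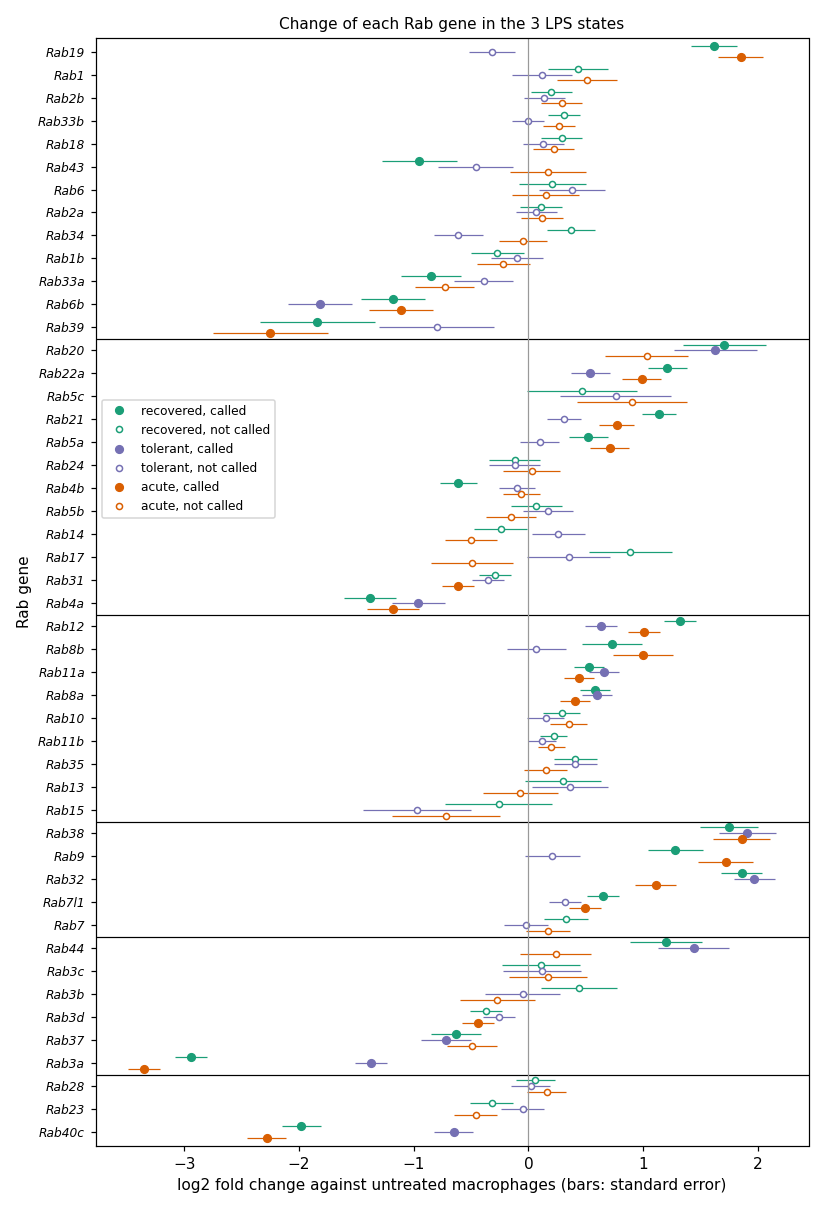
Log2 fold change of each of the 48 Rab genes in recovered, tolerant and acute against untreated cells, with its standard error; filled points passed an adjusted p of 0.05 in limma. For Rab19, Rab9, Rab3a and Rab40c the tolerant point lies nearer to 0 than the acute and recovered points, and for Rab32 it lies beyond the acute point.

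Traffic at the endoplasmic reticulum and the Golgi is served by 13 tested members, the largest role group. Only Rab19 was called higher against untreated cells, in recovered and in acute cells, while 4 members were called lower in recovered cells (Rab6b, Rab33a, Rab39 and Rab43), 1 in tolerant (Rab6b) and 2 in acute cells (Rab6b and Rab39). Rab19, a less studied Rab placed at the Golgi, had 12, 11.82 and 11.56 in recovered, 9.90, 9.68 and 9.98 in tolerant, 12.34, 12.16 and 11.57 in acute and 10.18, 10.23 and 10.11 in untreated cells. Every tolerant array was below every untreated array, and the recovered and acute arrays were all above both. Against untreated cells Rab19 was 3.07-fold higher in recovered (1.62 ± 0.2, adjusted p = 8.44e-05) and 3.61-fold higher in acute cells (1.85 ± 0.2, adjusted p = 3.53e-05), while tolerant cells differed by -0.32 ± 0.2 (adjusted p = 0.32). Tolerant cells were 4.51-fold lower than acute cells (-2.17 ± 0.2, adjusted p = 6.87e-05), and recovered cells were 3.84-fold higher than tolerant cells (1.94 ± 0.2, adjusted p = 0.000174). Within slides 1, 2 and 3 the tolerant difference from acute cells was -2.44, -2.48 and -1.59. The probe lies at chr6:39340244-39340303 of mm9, and its gene's upstream window, printed above, ends in the interferon-stimulated response element match.

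Rab39, which acts in phagosome acidification and in interleukin 1 secretion in human macrophages, had 5.63, 5.14 and 4.17 in recovered, 6.22, 6.65 and 5.22 in tolerant, 5.15, 4.90 and 3.69 in acute and 7.34, 6.90 and 6.24 in untreated cells. The recovered and acute arrays lay below the untreated ones, and tolerant arrays reached into the untreated range. It was above background on 2 recovered, 3 tolerant, 2 acute and 3 untreated arrays, so the lowest values are close to the limit of detection. Rab39 entered the test only through the tolerant and untreated groups, where it was highest. It was called lower than in untreated cells in recovered (adjusted p = 0.0144) and acute cells (adjusted p = 0.00551). Because not every recovered and acute array was above background, the fitted differences of -1.84 ± 0.5 and -2.25 ± 0.5 do not measure the size of the change. With normexp background correction the values were -0.76 (adjusted p = 0.0416) and -1 (adjusted p = 0.0133). The recovered call was lost without untreated 1 or recovered 3 (adjusted p up to 0.0614). With the replicate block Rab39 was called in every comparison with tolerant cells. Tolerant cells were lower than untreated cells (-0.8, adjusted p = 0.00715) and higher than acute (adjusted p = 0.000287) and recovered cells (adjusted p = 0.00187). No size is given against acute and recovered cells, because not all of their arrays were above background.

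Rab6b, an isoform of the Golgi Rab6 best known from neurons, had 8.93, 9.39 and 8.58 in recovered, 8.16, 8.51 and 8.31 in tolerant, 9.17, 9.28 and 8.66 in acute and 10.38 and 9.92 in untreated cells, where the spot of replicate 3 was left out of the fit as an outlier. The untreated arrays were the highest and no tolerant array reached the recovered or acute range. Rab6b fell by 1.82 ± 0.28 in tolerant (adjusted p = 0.00108), 1.18 ± 0.28 in recovered (adjusted p = 0.00721) and 1.11 ± 0.28 in acute cells (adjusted p = 0.0112). Without untreated 1 the recovered and acute calls were lost (adjusted p = 0.0687 and 0.0966), and in the authors' normalized values none of the 3 was called (adjusted p 0.372 to 0.405). The differences there were larger, at -4.09, -3.61 and -3.57 in tolerant, recovered and acute cells. Tolerant cells were lower than acute cells with the replicate block (-0.7, adjusted p = 0.0219) and recovered cells higher than tolerant cells (0.64, adjusted p = 0.0325).

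Rab34, a Golgi Rab that also acts in phagosome maturation in mouse macrophages, had 11.84, 12.13 and 11.82 in recovered, 10.47, 11.12 and 11.26 in tolerant, 11.37, 11.65 and 11.52 in acute and 11.43, 11.47 and 11.79 in untreated cells. Every tolerant array was below and every recovered array above those of the other groups. Recovered cells exceeded tolerant cells 1.97-fold (0.98 ± 0.21, adjusted p = 0.008), and with the replicate block tolerant cells were lower than untreated (-0.61, adjusted p = 0.0149) and acute cells (-0.56, adjusted p = 0.0193). Rab43, a Golgi Rab of antigen cross-presentation in mouse dendritic cells, had 12.79, 12.73 and 12.21 in recovered and 13.84, 13.50 and 13.23 in untreated cells (-0.95 ± 0.33, adjusted p = 0.0447), a call lost in 8 of 25 settings, among them without untreated 1 or 2, tolerant 1 or 2 or any recovered array (adjusted p up to 0.15). For Rab43 the block added 3 calls, all of lower levels. They were in tolerant against untreated (-0.46, adjusted p = 0.0364), tolerant against acute (-0.63, adjusted p = 0.0082) and recovered against tolerant cells (-0.49, adjusted p = 0.0263). Rab33a fell in recovered cells (-0.85 ± 0.26, adjusted p = 0.0242), a call lost in 5 of 25 settings, among them without untreated 1 or recovered 1 or 3 (adjusted p up to 0.145). Under the block it was also called in acute cells (-0.73, adjusted p = 0.0179).

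The Rabs of the general secretory route were called in no comparison. Rab1, which controls transport from the endoplasmic reticulum to the Golgi, differed from untreated cells by 0.43 ± 0.26, 0.12 ± 0.26 and 0.51 ± 0.26 in recovered, tolerant and acute cells. Under the replicate block Rab1 was called higher in recovered (adjusted p = 0.0162) and acute cells (adjusted p = 0.00774) and lower in tolerant than in acute cells (-0.39, adjusted p = 0.0293). Rab1b, Rab2a, Rab2b, Rab6, Rab18 and Rab33b were likewise not called, with absolute differences from untreated cells of at most 0.38 in the 3 LPS groups, and of these Rab1b was called lower in recovered cells with the block (-0.27, adjusted p = 0.046).

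Regulated secretion is served by 6 tested members, of which 1 was higher and 2 were lower in recovered and in tolerant cells, and 2 were lower in acute cells. Rab3a, the Rab of synaptic and secretory vesicles, showed the largest change among the 48. Its log2 signal was 6.86, 7.13 and 6.90 in recovered, 8.45, 8.57 and 8.58 in tolerant, 6.45, 6.41 and 6.79 in acute and 9.92, 9.89 and 9.89 in untreated cells. No 2 groups overlapped, and the tolerant arrays lay between the untreated arrays and those of the other LPS groups. Rab3a fell 7.66-fold in recovered (-2.94 ± 0.14, adjusted p = 5.99e-08), 2.58-fold in tolerant (-1.37 ± 0.14, adjusted p = 5.67e-05) and 10.2-fold in acute cells (-3.35 ± 0.14, adjusted p = 2.87e-08). Tolerant cells had 3.95 times the acute signal (1.98 ± 0.14, adjusted p = 1.63e-05), and recovered cells were lower than tolerant cells by 1.57 ± 0.14 (adjusted p = 9.8e-05). Within slides 1, 2 and 3 the acute difference from untreated cells was -3.47, -3.48 and -3.1. The probe lies at chr8:73282447-73282506 of mm9.

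Rab44, a large atypical Rab of granule release in mast cells, had 4.69, 5.24 and 5.44 in recovered, 4.98, 5.91 and 5.22 in tolerant, 4.07, 4.15 and 4.28 in acute and 3.33, 4.03 and 4.43 in untreated cells. It was well above background on every recovered and tolerant array, on no acute array and on 1 untreated array. Of the 6 mast cell markers, Mcpt4, Cma1, Mcpt8, Ms4a2 and Cpa3 were above background on no array. Tpsb2 was on all 12, with means of 6.64, 6.40, 6.42 and 6.44 in recovered, tolerant, acute and untreated cells. The summed mast cell list was 6.83 to 7.27 in recovered, 6.59 to 7.23 in tolerant, 6.53 to 7.42 in acute and 6.31 to 7.22 in untreated cells. Rab44 entered the test only through the recovered and tolerant groups, where it was highest. It was called higher than in untreated cells in recovered (adjusted p = 0.011) and tolerant cells (adjusted p = 0.00684). Because 2 of 3 untreated arrays were not above background, the fitted differences of 1.2 ± 0.31 and 1.44 ± 0.31 do not measure the size of the change. Against acute cells, where only a bound can be given, it was at least 2.16-fold higher in tolerant cells (adjusted p = 0.0175), and at least 1.82-fold higher in recovered cells without a call (adjusted p = 0.169, or 0.0243 with the replicate block). For such a bound each acute array took whichever was higher, the value of the probe itself or the dimmest value that the scanner software still called detected there. Normexp background correction ended both tolerant calls, with values of 0.39 against untreated (adjusted p = 0.0648) and 0.26 against acute cells (adjusted p = 0.18), and the call against acute cells was also lost without acute 1 or 2 or tolerant 2 (0.0533 to 0.0719).

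Rab37, which acts in the release of tumour necrosis factor by macrophages, had 6.52, 6.96 and 6.64 in recovered, 6.31, 7.12 and 6.44 in tolerant, 6.80, 7.01 and 6.73 in acute and 7.4, 7.5 and 7.12 in untreated cells. The untreated arrays were the highest, with 1 tolerant array level with the lowest of them. Rab37 was lower by 0.63 ± 0.22 in recovered (adjusted p = 0.0432) and by 0.72 ± 0.22 in tolerant cells (adjusted p = 0.0404), calls that were lost in 11 and 13 of 25 other settings. Among these, removal of any one of untreated 1 or 2, acute 1 or 2, or recovered 1 or 3 ended both (adjusted p up to 0.155), and removal of tolerant 1 or 3 ended the tolerant one. With the replicate block Rab37 was also called in acute cells (-0.49, adjusted p = 0.0165). Rab3d fell in acute cells by 0.44 ± 0.14 (adjusted p = 0.0335), a call lost in 10 of 25 settings, 6 of them the removal of untreated 2 or 3, any acute array or tolerant 2 (adjusted p up to 0.125), and with the block it was also called in recovered cells (-0.37, adjusted p = 0.0163). Rab3b and Rab3c were not called; of the Rab3c probes 2 were above background on all 12 arrays and 1 on none, so which of them reports the gene was not tested.

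Among the members outside these routes, Rab40c carries a SOCS box and works as part of a ubiquitin ligase. Its signal was 9.74, 10 and 10 in recovered, 11.11, 11.21 and 11.39 in tolerant, 9.67, 9.30 and 9.87 in acute and 11.78, 11.90 and 11.99 in untreated cells. Tolerant cells lay between untreated cells and the other LPS groups, and only the recovered and acute arrays overlapped. Rab40c fell 3.94-fold in recovered (-1.98 ± 0.17, adjusted p = 5.01e-06), 1.57-fold in tolerant (-0.65 ± 0.17, adjusted p = 0.0181) and 4.86-fold in acute cells (-2.28 ± 0.17, adjusted p = 1.66e-06). Its tolerant call was lost without untreated 2 or 3 or tolerant 1 or 2 (adjusted p 0.0543 to 0.0737). Tolerant cells were 3.09-fold higher than acute cells (1.63 ± 0.17, adjusted p = 0.000114), and recovered cells were lower than tolerant cells by 1.33 ± 0.17 (adjusted p = 0.000473). Rab23, of Hedgehog signalling, and Rab28, of cilia, were called in no comparison.

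Tolerant and acute cells both ended with 4 h of LPS. The earlier dose and the longer time in culture of tolerant cells cannot be told apart in this design. Tolerant cells were set against acute cells. This called 10 of 48 members, or 20.8% against 22.6% of all genes, with 5 higher (12% of all genes) and 5 lower (10.6% of all genes). Higher in tolerant cells were Rab3a, Rab40c, Rab44, Rab32 and Rab14, and lower were Rab19, Rab9, Rab8b, Rab5a and Rab21. With the replicate block the count was 20 (9 higher, 11 lower) beside 44.5% of all genes. Without acute 1, acute 2 or tolerant 2 it was 6, 5 and 6, beside 17.2%, 15.5% and 15.2% of all genes. The comparison of recovered with tolerant cells, which differ in the length of the rest, called 9 members (6 higher, 3 lower), 18.8% against 20.5% of all genes called (11% higher and 9.54% lower). The block gave 18, beside 45% of all genes. Higher in recovered cells were Rab19, Rab9, Rab34, Rab21, Rab12 and Rab22a, and lower were Rab3a, Rab40c and Rab4b. The Rab22a call (0.67 ± 0.17, adjusted p = 0.0177) was lost in 3 of 25 settings (adjusted p up to 0.0673). In the authors' values the split was 8 higher and 7 lower, beside 36.1% of all genes called.

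Recovered and acute cells, which ended with the same 4 h of LPS, differed in 0 of 48 members by limma, against 2.04% of all genes called (1.46% higher and 0.581% lower). An unadjusted p under 0.05 was found for 9 of the 48 members and for 14.1% of all genes. The lowest adjusted p was that of Rab32 (0.066). With the replicate number as a block 6 members were called, 4 of them higher in recovered cells (Rab32, Rab20, Rab44 and Rab17) and 2 lower (Rab43 by 1.12 with an adjusted p of 0.00315, and Rab4b), beside 2198 of 20496 genes with that block. Rab43 had 12.79, 12.73 and 12.21 in recovered and 14.08, 14.04 and 12.96 in acute cells, and the groups did not overlap. In the fit without a block the count was 2 when acute 3 was left out, beside 1.96% of all genes. Without the 4 arrays of the second scan day it was 4, beside 2.84%. Over all 48 members the log2 difference between recovered and acute cells had a median of 0.07 beside 0.04 over all genes. The lowest was -1.12, that of Rab43. Rab17 had the highest, for which no size is given because 1 acute array was above background.

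The machinery that acts on Rabs was examined in 4 lists. Beside their counts stand the shares of all genes called against untreated cells. These were 18.5% higher and 16.9% lower in recovered, 11.2% and 8.6% in tolerant, and 14.3% and 14.9% in acute cells. Among 14 genes of Rab lipidation and membrane delivery, 1 was higher and 3 lower in recovered, 1 higher and 0 lower in tolerant, and 1 higher and 2 lower in acute cells against untreated cells. Rabggta, the alpha subunit of the transferase that attaches the lipid tails, fell in recovered (-1.12 ± 0.21, adjusted p = 0.00183) and acute cells (-0.88 ± 0.21, adjusted p = 0.00868), with 8.83, 9.22 and 9.38 in recovered, 9.46, 9.13 and 9.54 in acute and 9.95, 10.22 and 10.62 in untreated cells. Rabif, a Rab chaperone, fell in acute cells (-0.58 ± 0.15, adjusted p = 0.0134) and was higher in tolerant than in acute cells (0.67 ± 0.15, adjusted p = 0.009), both calls being lost without the second scan day (adjusted p = 0.0704 and 0.0628). Yipf6, a Golgi membrane protein, was higher in all LPS groups by its brightest probe (0.84, 0.92 and 0.8 in recovered, tolerant and acute cells), but the mean of its probes gave 0.28, 0 and 0.4, none of them called.

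Of 33 tested exchange factors 9 were higher and 7 lower in recovered, 6 higher and 4 lower in tolerant, and 8 higher and 8 lower in acute cells. Calls in either direction covered 35.3%, 19.8% and 29.2% of all genes in these 3 comparisons. Rab3il1, which loads Rab3a and Rab8 with GTP, fell in all 3 LPS groups. Its signal was 9.98, 10.31 and 9.24 in recovered, 11.98, 12.08 and 10.98 in tolerant, 10, 10.17 and 8.86 in acute and 14.25, 13.98 and 13.84 in untreated cells. The fall was 18.1-fold in recovered (-4.18 ± 0.4, adjusted p = 1.19e-05), 5.07-fold in tolerant (-2.34 ± 0.4, adjusted p = 0.00163) and 20.3-fold in acute cells (-4.34 ± 0.4, adjusted p = 9.32e-06), and tolerant cells were higher than acute cells by 2 ± 0.4 (adjusted p = 0.0045, but 0.0876 in the authors' values).

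Rin2, an exchange factor for Rab5, had 14.43, 14.31 and 14.25 in recovered, 12.73, 12.80 and 12.43 in tolerant, 14.80, 14.37 and 14.22 in acute and 11.02, 11.08 and 11.67 in untreated cells. Recovered and acute arrays overlapped, and the tolerant arrays lay between them and the untreated ones. Rin2 rose 8.4-fold in recovered (3.07 ± 0.21, adjusted p = 8.59e-07), 2.63-fold in tolerant (1.39 ± 0.21, adjusted p = 0.000763) and 9.22-fold in acute cells (3.2 ± 0.21, adjusted p = 6.48e-07), and was lower in tolerant than in acute cells by 1.81 ± 0.21 (adjusted p = 0.000202). Dennd3, an exchange factor for Rab12, was above background on all recovered and acute arrays and on no tolerant or untreated array. Dennd3 thus entered the test only through the recovered and acute groups, where it was highest. It was at least 2.43-fold higher in recovered (adjusted p = 0.000339) and at least 4.33-fold higher in acute cells (adjusted p = 3.33e-05) than in untreated cells, and at least 3.31-fold lower in tolerant than in acute cells (adjusted p = 0.000273).

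Madd, an exchange factor for Rab3 and Rab27, had 17.19, 16.66 and 17.44 in recovered, 15.64, 16.46 and 16.82 in tolerant, 15.78, 15.75 and 15.64 in acute and 14.31, 14.28 and 14.72 in untreated cells. By this probe it was 6.32-fold higher in recovered (2.66 ± 0.29, adjusted p = 3.15e-05), 3.65-fold higher in tolerant (1.87 ± 0.29, adjusted p = 0.000886) and 2.44-fold higher in acute cells (1.28 ± 0.29, adjusted p = 0.0055), but the acute direction turned when all its probes were averaged (-0.25, adjusted p = 0.506). Madd was also higher in recovered than in acute cells (1.37 ± 0.29, adjusted p = 0.0406), a call lost without any array other than untreated 3, tolerant 1 or tolerant 3 (adjusted p 0.0539 to 0.138). Dennd2c, of a family of exchange factors for Rab9, fell in all LPS groups. It was above background on no recovered array, so it entered the test only through other groups, where it was higher. The fall was at least 5.96-fold in recovered cells (adjusted p = 1.29e-05). On the log2 scale it was 2.79 ± 0.42 in acute (adjusted p = 0.000409) and 1.69 ± 0.42 in tolerant cells (adjusted p = 0.0154, lost without untreated 1 or tolerant 3 at 0.0611 and 0.0573). The acute values of Dennd2c were 4.82, 4.44 and 3.28. On acute 3 Rab44 was not above background at 4.28, so the acute size is uncertain.

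GTPase-activating proteins were called lower in 19 and higher in 4 of 36 in recovered, lower in 6 and higher in 1 in tolerant, and lower in 12 and higher in 3 in acute cells. Of all genes 16.9%, 8.6% and 14.9% were called lower and 18.5%, 11.2% and 14.3% higher in these groups. Their median log2 fold change was -0.61, -0.23 and -0.45, beside 0.06, -0.02 and 0.02 over all genes. Tbc1d2, which switches off Rab7, had 7.45, 8.10 and 7.17 in recovered, 8.47, 8.62 and 8.40 in tolerant, 7.56, 7.94 and 7.17 in acute and 10.56, 11.17 and 10.90 in untreated cells. It fell 9.86-fold in recovered (-3.3 ± 0.26, adjusted p = 3.05e-06), 5.21-fold in tolerant (-2.38 ± 0.26, adjusted p = 9.1e-05) and 9.98-fold in acute cells (-3.32 ± 0.26, adjusted p = 3.07e-06). Tbc1d16, which acts on Rab4a, fell in recovered (-2.03 ± 0.17, adjusted p = 5.01e-06) and acute cells (-1.59 ± 0.17, adjusted p = 3.42e-05) and was higher in tolerant than in acute cells (1.07 ± 0.17, adjusted p = 0.00139). Tbc1d1, which acts on Rab8 and Rab10, moved the other way, with a rise of 2.04 ± 0.23 in recovered (adjusted p = 3.63e-05), 1.48 ± 0.23 in tolerant (adjusted p = 0.00083) and 2.15 ± 0.23 in acute cells (adjusted p = 2.69e-05). Tbc1d30, which acts on Rab8, was above background on no recovered or tolerant array, so it entered the test only through the other groups, where it was highest. It fell at least 1.9-fold in recovered (adjusted p = 0.000605) and at least 1.96-fold in tolerant cells (adjusted p = 0.0121). Normexp correction ended both calls (adjusted p = 0.172 and 0.0998), and the removal of tolerant 2 ended the tolerant one (0.0535).

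Of 36 effectors tested 4 were higher and 13 lower in recovered, 3 higher and 5 lower in tolerant, and 3 higher and 12 lower in acute cells. Over all genes, calls in either direction made up 35.3%, 19.8% and 29.2% in the same order. Rab11fip1, which binds Rab11 on recycling endosomes, had 8.16, 8.52 and 8.81 in recovered, 8.40, 8.60 and 8.34 in tolerant, 7.95, 7.69 and 8.26 in acute and 3.73, 3.79 and 4.28 in untreated cells, where 1 of 3 arrays was above background. It entered the test only through LPS groups, where it was highest. It was called higher in recovered (adjusted p = 5.4e-08), tolerant (adjusted p = 1.85e-07) and acute cells (adjusted p = 1.46e-07). The fitted log2 differences were 4.56, 4.51 and 4.03, and their size depends on untreated values that were mostly not above background. Micall2, an effector of Rab8 and Rab13, also rose in all 3 groups (1.34, 1.74 and 1.14 in recovered, tolerant and acute cells). Mical1, an actin oxidase that binds Rab1 and other Rabs, fell in all 3 (-1.57, -1.81 and -1.6). Plekhm1, an effector of Rab7 in lysosome fusion, fell in recovered (-1.57 ± 0.16, adjusted p = 2.33e-05) and acute cells (-1.54 ± 0.16, adjusted p = 2.78e-05) and was higher in tolerant than in acute cells (1.06 ± 0.16, adjusted p = 0.00106).

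**Figure D4:**
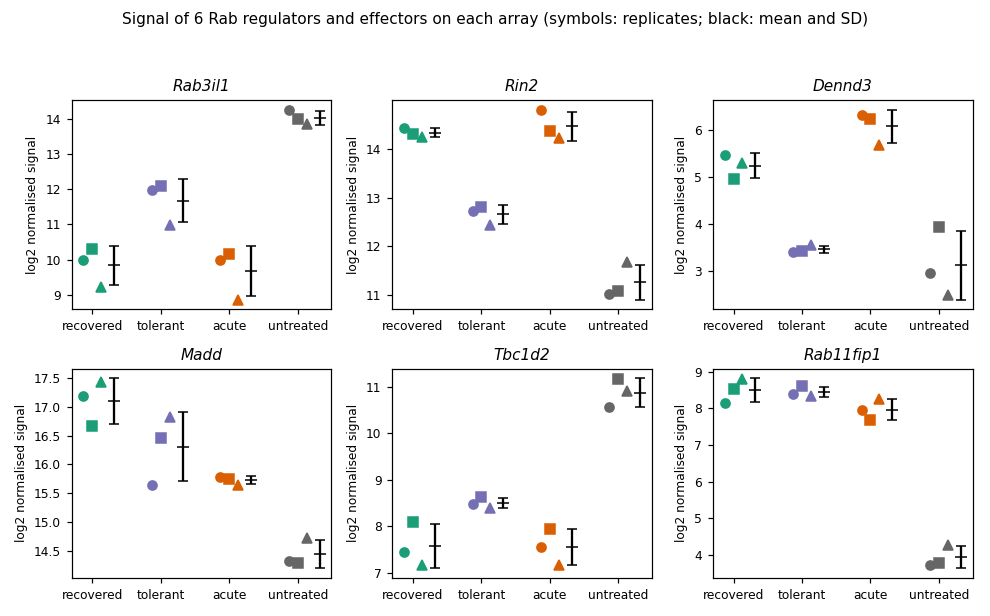
Log2 normalised signal on each array of 6 genes that act on Rabs, by group (recovered, tolerant, acute, untreated), with the group mean and SD in black. Rab3il1 and Tbc1d2 are highest in untreated cells, Rin2 and Dennd3 are highest in recovered and acute cells, and Rab11fip1 is near 4 in untreated cells and near 8 in all 3 LPS groups.

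The 9 members that were not tested were above background on 0 arrays (Rab25, Rab27b, Rab36, Rab40b and Rab9b), 1 array (Rab39b), 2 arrays (Rab26), 4 arrays (Rab27a) or 5 arrays (Rab30). Rab27a, which docks secretory granules, was detected on 2 recovered, 0 tolerant, 1 acute and 1 untreated arrays. Rab30, a Golgi Rab, was the nearest to passing, with 4.98, 3.80 and 2.17 in recovered, 5.34, 4.96 and 2.65 in tolerant, 6.73, 6.21 and 3.78 in acute and 1.70, 1.94 and 1.74 in untreated cells. It was above background on 1 recovered, 2 tolerant, 2 acute and 0 untreated arrays, and values that were not above background have no order. Among the tested members nearest to the limit, Rab17 was above background on 6 arrays and Rab3b and Rab44 on 7. Several probes passed the filter for 16 members, and in 0 of them were 2 probes called in opposite directions. Cross-hybridisation between close relatives such as Rab1 and Rab1b or the Rab3 and Rab5 isoforms was not tested.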

How the data were processed

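Per the file headers, the deposited scanner files hold spot intensity values from Agilent Feature Extraction 10.7.3.1, with the background subtracted on each array and no scaling across arrays; probe positions are those of mm9. The authors' deposited matrix holds log2 values, for which the submitters' processing notes name limma without a version; it was used as an alternative only. Here log2 of the processed intensity was taken, each array's 75th percentile (8.04 to 9.38) was subtracted and the mean percentile added back, outlier-flagged spots (135 to 233 per array) were left out, and each gene was read from its brightest probe. A gene was tested if that probe was well above background on all 3 arrays of a group. All 12 arrays entered 1 linear model without a block (limma 3.58.1 in R 4.3.3, data.table package 1.17.8), with two-sided moderated tests and Benjamini-Hochberg adjustment over 20496 genes. The fit was tested on simulated data. The small number of arrays limits the precision (median within-group standard deviation of members 0.251), and p-values measure the spread between the arrays of a group. No level is compared between probes.

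Arrays with the same replicate number resembled one another: over 18 same-numbered pairs of arrays the correlation of deviations from group means was 0.276 to 0.774, and over 36 differently numbered pairs its median was -0.369. Taking deviations from means of 3 arrays in itself pushes differently numbered pairs towards negative values where same-numbered arrays share an effect. Replicate number largely coincides with slide and scan day, so paired samples and a shared array batch cannot be told apart. A fit with the replicate number as a block was therefore also made. Other alternatives were the background correction, scaling, dim-probe filter, choice of probe, variance prior, slide as a block, the groups fitted and the removal of single arrays; leaving out the second scan day was chosen after seeing the data. Members with per-array values are a panel of Rabs of endocytosis, phagocytosis and secretion and those with the 4 largest rises and falls in each comparison; Rab12, Rab22a, Rab43 and the other members described beyond these were chosen after their values were seen, to account for the family. The 3 genes of each list of Rab regulators with the largest changes against untreated cells are named. The members and lists were chosen with earlier results of these data known. A single marker of the erythroid and platelet list is not reported here. Upstream sequences are from RefSeq on GRCm38.p6. Plots were made with matplotlib 3.10.9, numpy 2.4.6 and pandas 2.3.3 under Python 3.11.15.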

Additional observations from a re-analysis of the deposited data

How the results depend on the processing

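Under the alternatives run, the counts of Rab genes called in recovered or acute against untreated cells, and by the F-test, stayed within 1.5 times the values given. The replicate block changed 44 calls, all of them gained, and its values stand beside the results; it gave 20 members when tolerant were set against acute cells, 18 for recovered against tolerant cells and 6 for recovered against acute cells. The slide as a block gave 20, 19 and 4 in those 3 comparisons and 20 in tolerant against untreated cells, beside 46.9%, 40.2%, 7.8% and 39.4% of all genes. With the slide as a random block the counts were 20, 19 and 4, beside 46%, 41% and 8.69% of all genes. The authors' values gave 19, 15 and 4, beside 37.4%, 36.1% and 5.84% of all genes. Recovered against acute cells, with 0 calls in the fit used, had 2 under quantile scaling, 1 under the percentile over probes above background on all arrays, 1 under normexp, 1 with the mean of all probes, 1 with the variance prior following intensity and 4 without the second scan day. The shares of all genes called there were 1.68%, 1.45%, 2.12%, 1.99%, 2.62% and 2.84% in the same order. Removing 1 array at a time gave 5 to 11 for tolerant against acute cells, 0 to 2 for recovered against acute cells, 7 to 9 for recovered against tolerant cells, 10 to 13 in tolerant, 18 to 24 in recovered and 15 to 20 in acute against untreated cells. The shares of all genes called were 15.2% to 23.5%, 0.122% to 2.18%, 12.6% to 21.9%, 14.2% to 21%, 28.5% to 36.7% and 24.5% to 29.3% in the same order. For the panel and the members with the largest changes only, 4275 values were taken under alternatives and within single slides. Of these, 124 lost a call and 137 gained one. Within slides 78 differed from the main value by at least the gene's fitted standard deviation. A reversal was counted only where the value or its main counterpart was called, and there were 0. Sign changes between uncalled values were not counted. Among other genes Madd reversed in acute against untreated cells (-0.25) with the mean of its probes. The cause was not tested. Scaling moved the median of all genes in acute against untreated cells to -0.1 (quantile) or -0.13 (percentile over probes above background on all arrays), beside 0.02. Low signal limits Rab17, Rab39, Rab3b and Rab44, which were not above background on every array.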
